A study of Homo sapiens with 4 samples.

Results

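The genes described are 49 genes of WNT signalling: ligands, the proteins that make and release them, receptors, secreted antagonists, nuclear effectors and targets. They are a list of symbols, matched through the Entrez gene IDs of the files. The rule uses no threshold on a measured value, but the list was drawn up with earlier results of these data known, and the ligands it leaves out were at 0 or low in these libraries, so its counts cannot be read as those of all WNT genes. All 49 were found among the 19390 gene IDs listed in any library, and 37 of them had at least 1 count, after rounding, in all 4 libraries. RNA was sequenced from H1, a wild type human embryonic stem cell line, at 4 times of a stepwise differentiation toward blood, with 1 library a day. The day 0 cells were undifferentiated. Day 2 cells had spent 2 days with 40 ng/ml activin A and 50 ng/ml BMP4. Day 3 and day 4 cells were in or at the end of the next step, 2 days with 40 ng/ml VEGF and 50 ng/ml bFGF, and both steps used a custom mTeSR1 medium. No WNT protein and no inhibitor of the pathway is named among these additions.

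WNT proteins are secreted, lipid-modified ligands. PORCN attaches the lipid and WLS carries the ligand to the cell surface, where frizzled receptors bind it, together with LRP coreceptors in the branch that stabilises beta-catenin, or with ROR and other coreceptors in branches that act on cell shape and movement. Beta-catenin then acts in the nucleus through TCF and LEF factors on targets that include the pathway's own inhibitors. R-spondins, bound to LGR receptors, strengthen the signal by removing RNF43 and ZNRF3, ubiquitin ligases that clear frizzled proteins from the membrane. In the embryo the pathway is known for its part in forming the primitive streak and mesoderm.

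The libraries held 5.04, 5.20, 5.20 and 5.49 M expected counts on days 0, 2, 3 and 4, so that 1 count stood for 0.182 to 0.196 CPM, the count scaled to the adjusted total of its library. With 1 library a day there is no spread between replicates and no test, and every interval given is a 95% interval for counting error only. The rule for calling a gene 4-fold higher or lower was a difference of 2 or more in log2(CPM + 1), with 1 CPM or more in at least 1 of the libraries compared. The folds printed beside genes are plain quotients of CPM, with nothing added. For a gene without counts in 1 library, the fold was computed as if that library had held 3 counts. Such a fold leaves out the counting error of the other library, so it is not a 95% limit. In bulk RNA, fewer cells of a type and less RNA per cell cannot be told apart. Markers of cell state moved over the same days. The summed level of 8 pluripotency genes was 8938, 3168, 2492 and 1949 CPM on days 0, 2, 3 and 4, with none at 0. The sum of 6 primitive streak genes was 1.55, 657.5, 356.0 and 77.2 CPM, and that of 6 lateral mesoderm genes 6.21, 658, 880 and 1077 CPM. The 6 endoderm genes summed to 6.21, 411, 358 and 337 CPM, and the 6 endothelial genes to 37.0, 70.6, 208.5 and 590 CPM. Of the 6 blood genes GATA1, HBE1 and HBZ were at 0 through day 3, and on day 4 GATA1 had 10 counts, HBE1 5 and HBZ 0. The sum of all 6 lay between 20.6 and 29.1 CPM on the 4 days. Of the 6 neuroectoderm genes SOX1 and NEUROG2 were at 0 throughout, with sums of 36.7, 91.4, 44.8 and 19.5 CPM, and 6 trophoblast and amnion genes, of which CGB5 was at 0 throughout, summed to 6.59, 194.8, 230.4 and 163.4 CPM. The part of this change of cell state in the results below was not tested.

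More of the genes differed by 4-fold over the first step than over the second. Comparing day 2 with day 0, 21 of the 49 genes were 4-fold higher, beside 4.63% of the 15379 genes that reached the minimum, and 3 were 4-fold lower, beside 1.93%. The lower genes were SFRP1, WIF1 and TCF7L1. The median difference in log2(CPM + 1) was 1.29 over all 49 genes and 1.83 over the 44 that reached the minimum, beside -0.00 over all genes that did. Comparing day 4 with day 2, 4 of the 49 were 4-fold higher (RSPO2, RSPO3, WNT11 and TNFRSF19), beside 2.32% of 15406 genes, and 0 were 4-fold lower, beside 1.40%. The median was -0.54 over all 49 and -0.60 over the 45 that reached the minimum, beside 0.02 over all genes that did. Against day 0, day 4 had 20 of the 49 genes 4-fold higher, beside 6.27% of 15652 genes, and 4 lower (FZD5, FZD7, SFRP2 and WIF1), beside 3.44%, with a median of 1.41 over all 49 and 1.95 over the 42 that reached the minimum, beside 0.03 over all genes that did. With a pseudocount of 5 CPM in place of 1, which presses low genes together, the day 4 against day 0 counts were 13 higher and 2 lower, and the day 2 against day 0 counts were 14 higher and 2 lower. The calls lost for day 2 against day 0 were those of FZD1, RSPO3, FRZB, SP8, TNFRSF19, WNT2, DKK4 and, among the lower genes, WIF1. The 3 comparisons share libraries, so their counts are not independent of each other.

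**Figure D1:**
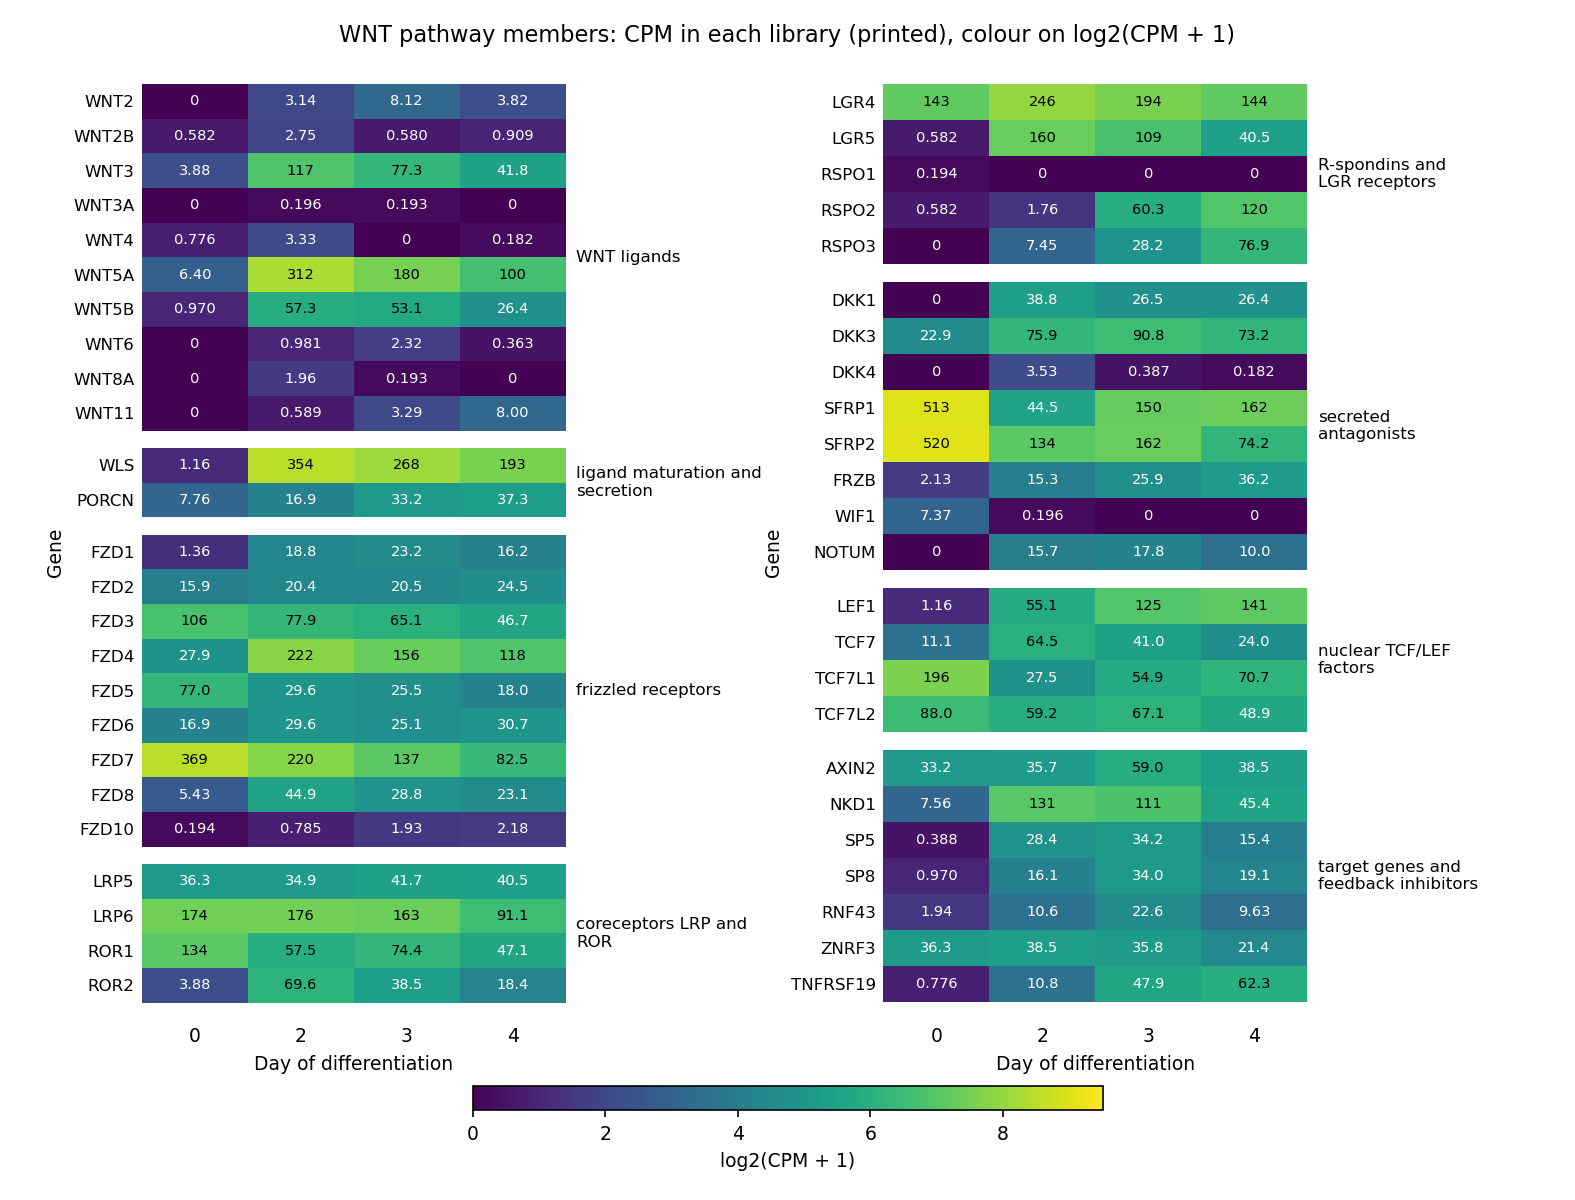
CPM of each of the 49 genes (rows, grouped by role) in the library of each day (columns: days 0, 2, 3 and 4), printed in the cell and coloured on log2(CPM + 1). WNT5A, WLS and LGR5 are brightest on day 2, SFRP1, SFRP2 and TCF7L1 on day 0, and RSPO2, RSPO3 and LEF1 on day 4.

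Of the 49 genes, 38 reached 10 CPM on at least 1 day. Among these, 8 had their highest level on day 0, beside 34.1% of the 11565 genes of the series that reached 10 CPM, and 14 on day 2, beside 20.1%. Another 8 were highest on day 3, beside 18.0%, and 8 on day 4, beside 27.8%. Some roles leaned to a day and others did not. All 3 ligands over 10 CPM were highest on day 2, 4 of the 7 targets on day 3, and both R-spondins over 10 CPM on day 4. Of these, WNT5B and SP5 differed between days 2 and 3 only within counting error. The 8 frizzled receptors over 10 CPM were spread, with 3, 2, 1 and 2 highest on days 0, 2, 3 and 4. So were the 6 secreted antagonists over 10 CPM, with 2, 1, 2 and 1. The coreceptors and the TCF and LEF factors did not share a day either. The other 11 genes stayed under 10 CPM throughout: WNT2, WNT2B, WNT3A, WNT4, WNT6, WNT8A, WNT11, FZD10, RSPO1, DKK4 and WIF1. On day 0, 15 of the 49 genes had 3 counts or fewer, and 9 of those were not listed at all, so their folds against day 0 rest on few counts. The highest day was the same on the deposited FPKM for 37 of the 38 genes, the exception being LRP6, which was highest on day 0 on that scale.

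Among the ligands, WNT5A (gene ID 7474), which is best known for signalling without beta-catenin, had 6.40, 312.5, 180.1 and 99.96 CPM on days 0, 2, 3 and 4. It was highest on day 2, at 48.8-fold its day 0 level (34.6 to 71.2), and its day 4 level was 3.13-fold below that of day 2 (2.84 to 3.45). WNT3 (gene ID 7473), a beta-catenin ligand needed for the primitive streak in mice, had 3.88, 116.7, 77.3 and 41.8 CPM and was 30.1-fold higher on day 2 than on day 0 (19.3 to 49.6). WNT5B (gene ID 81029), a close relative of WNT5A, had 0.970, 57.3, 53.15 and 26.35 CPM. Its day 3 and day 2 levels were within counting error of each other (1.08-fold lower on day 3, 0.911 to 1.28), while WNT5A and WNT3 were already lower on day 3 than on day 2, by 1.74-fold (1.60 to 1.88) and 1.51-fold (1.33 to 1.72). So the 3 abundant ligands shared their low day and their highest day but not the pace of the decline.

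The weaker ligands followed other courses. WNT11 (gene ID 7481), known for its part in cell movement during zebrafish gastrulation, had 0, 3, 17 and 44 counts on the 4 days, or 7.997 CPM on day 4. It was 13.6-fold higher on day 4 than on day 2 (4.36 to 68.4) and the single ligand called 4-fold higher in that step. WNT2 (gene ID 7472) had 0, 3.14, 8.12 and 3.82 CPM, with its highest level on day 3. WNT8A, a ligand of the early mouse streak, had 0, 10, 1 and 0 counts, and WNT4 had 4, 17, 0 and 1, so that both were seen mainly on day 2. WNT3A, often used as the recombinant ligand, never exceeded 1 count, WNT6 reached 12 counts on day 3, and WNT2B 14 counts on day 2. Per length, in FPKM (fragments per kilobase of transcript, scaled to library size, the scale on which genes are compared here), the 10 ligands summed to 3.27, 116.5, 82.7 and 47.8 on days 0, 2, 3 and 4. On that scale WNT5A made up 44.7%, WNT3 28.9% and WNT5B 21.9% of the ligand level on day 2, and WNT11 reached 8.72% on day 4.

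The partners that make and release the ligands did not move alike. WLS (gene ID 79971), the carrier of lipid-modified WNT proteins, had 1.16, 353.5, 268.3 and 193.4 CPM on the 4 days. Its course had the shape of the abundant ligands, high on day 2 and lower after, and its day 4 level was 1.83-fold below day 2 (1.69 to 1.97). The same fold was 3.13 for WNT5A, 2.79 for WNT3 (2.39 to 3.27) and 2.17 for WNT5B (1.77 to 2.67), whose interval overlaps that of WLS. PORCN (gene ID 64840), the acyltransferase, had 7.76, 16.9, 33.2 and 37.3 CPM. It was lowest on day 0, 2.18-fold higher on day 2 than on day 0 (1.48 to 3.25) and 2.21-fold higher on day 4 than on day 2 (1.71 to 2.88). Its day 4 and day 3 levels were within counting error (1.12-fold, 0.911 to 1.38).

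**Figure D2:**
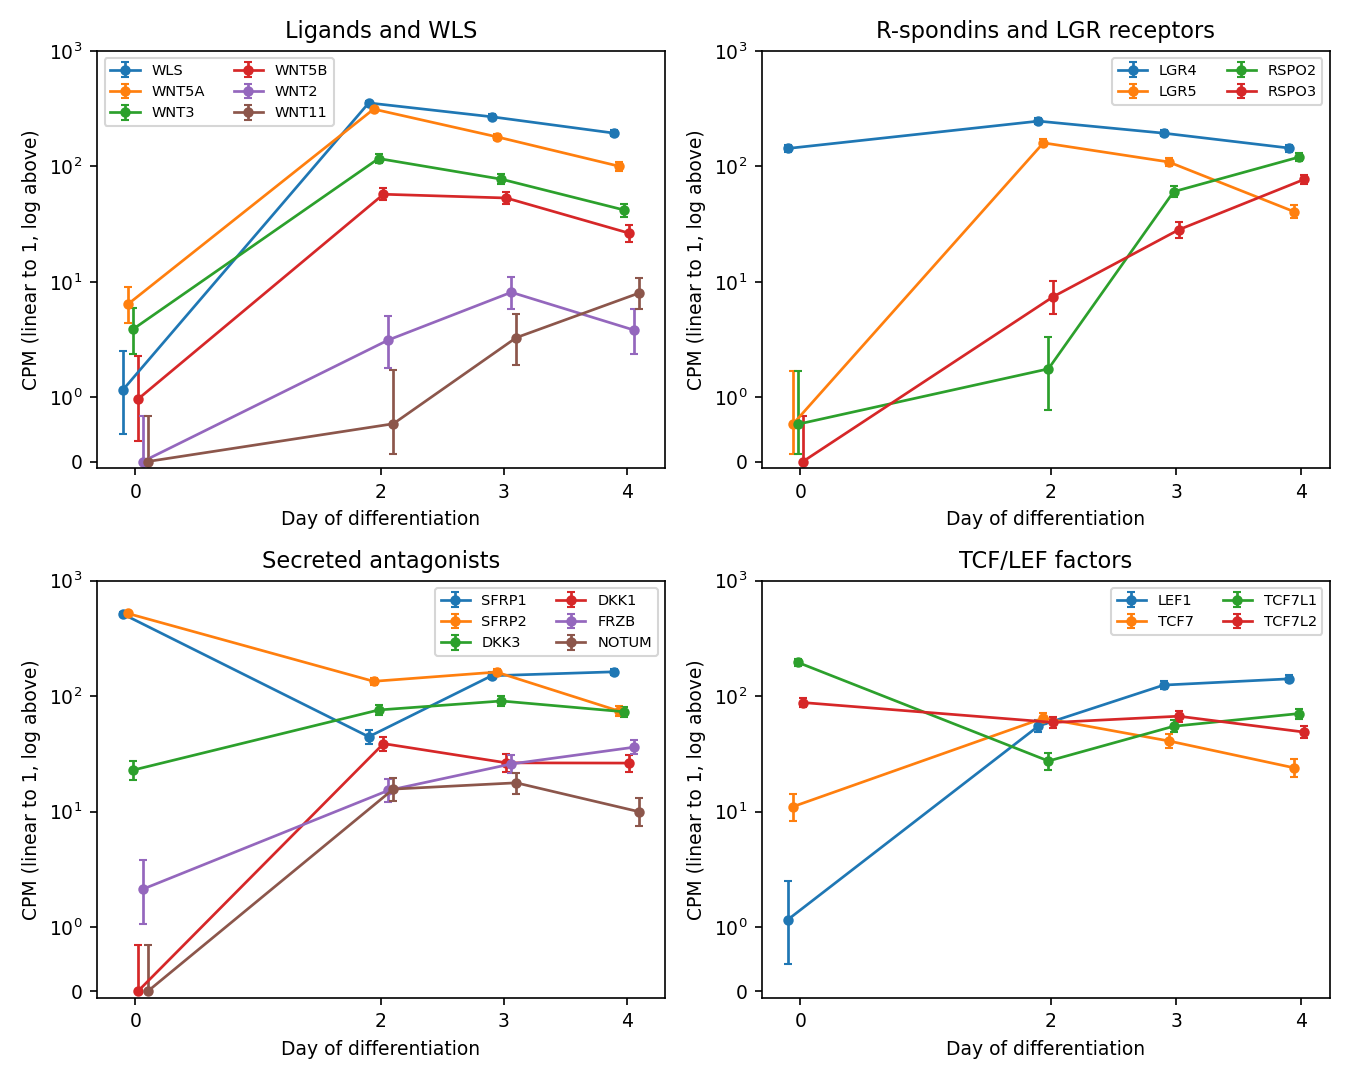
CPM on days 0, 2, 3 and 4 (1 library each, points offset sideways for legibility) on an axis that is linear up to 1 and logarithmic above, with 95% Poisson intervals for counting error as bars. Of the 5 ligands plotted, WNT3, WNT5A and WNT5B are highest on day 2, like WLS, RSPO2 and RSPO3 climb to day 4 as LGR5 declines, and SFRP1 and TCF7L1 both have their lowest level on day 2.

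The make-up of the frizzled receptors differed between days. The 9 frizzled genes summed to 131.9, 125.9, 91.3 and 69.25 FPKM on days 0, 2, 3 and 4. Between days 2 and 0 the direction of this sum turned with the scale, since in CPM it was 664 on day 2, against 620.2 on day 0, while on day 4 it was lower than on either day on both scales, at 362 CPM. FZD7 (gene ID 8324), the main frizzled receptor of human embryonic stem cells, had 369, 220.1, 137.4 and 82.5 CPM. It was lower on each later day, and 4.47-fold lower on day 4 than on day 0 (4.03 to 4.97). Its share of the frizzled FPKM was 74.0, 44.3, 38.7 and 30.8% on the 4 days. FZD5 (gene ID 7855), a receptor that also serves beta-catenin signalling, had 77.0, 29.6, 25.5 and 17.99 CPM and was 4.28-fold lower on day 4 than on day 0 (3.42 to 5.39). These were the 2 frizzled genes 4-fold lower in any of the comparisons, and FZD5 fell short with a pseudocount of 5 CPM and on FPKM.

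FZD4 (gene ID 8322), known as a receptor of WNT and of norrin in retinal vessels, had 27.9, 222.1, 156.0 and 118.3 CPM and was 7.95-fold higher on day 2 than on day 0 (6.68 to 9.52). Its share of the frizzled FPKM was between 22.8 and 23.2% on each later day, against 2.91% on day 0. FZD8 (gene ID 8325), whose extracellular domain served to show how a WNT protein is bound, had 5.43, 44.9, 28.8 and 23.1 CPM, 8.27-fold higher on day 2 than on day 0 (5.57 to 12.7). FZD1 (gene ID 8321) had 1.36, 18.8, 23.2 and 16.2 CPM, 13.9-fold higher on day 2 than on day 0 (6.48 to 35.4). All 3 were lowest on day 0 and past their highest level on day 4. On day 4 FZD7 and FZD4, at 21.3 and 15.9 FPKM, lay close to each other where on day 0 they had been at 97.6 and 3.84 FPKM. FZD2, FZD3 and FZD6 were not called in any comparison. FZD6 had 16.9, 29.6, 25.1 and 30.7 CPM, and its share of the frizzled FPKM was 11.6% on day 4, against 3.42% on day 0. FZD2 lay between 15.9 and 24.5 CPM, and FZD3 was lower each day, with 106.5, 77.9, 65.1 and 46.7 CPM. FZD10 had at most 12 counts. Counts of FZD1, FZD2, FZD3, FZD4, FZD5, FZD7 and FZD8 were fractional in at least 1 library, so part of their reads was divided by estimate and their exact values are less certain. Outside the frizzled genes the same holds for WNT4, LRP6, TCF7, NKD1, SP5 and ZNRF3.

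**Figure D3:**
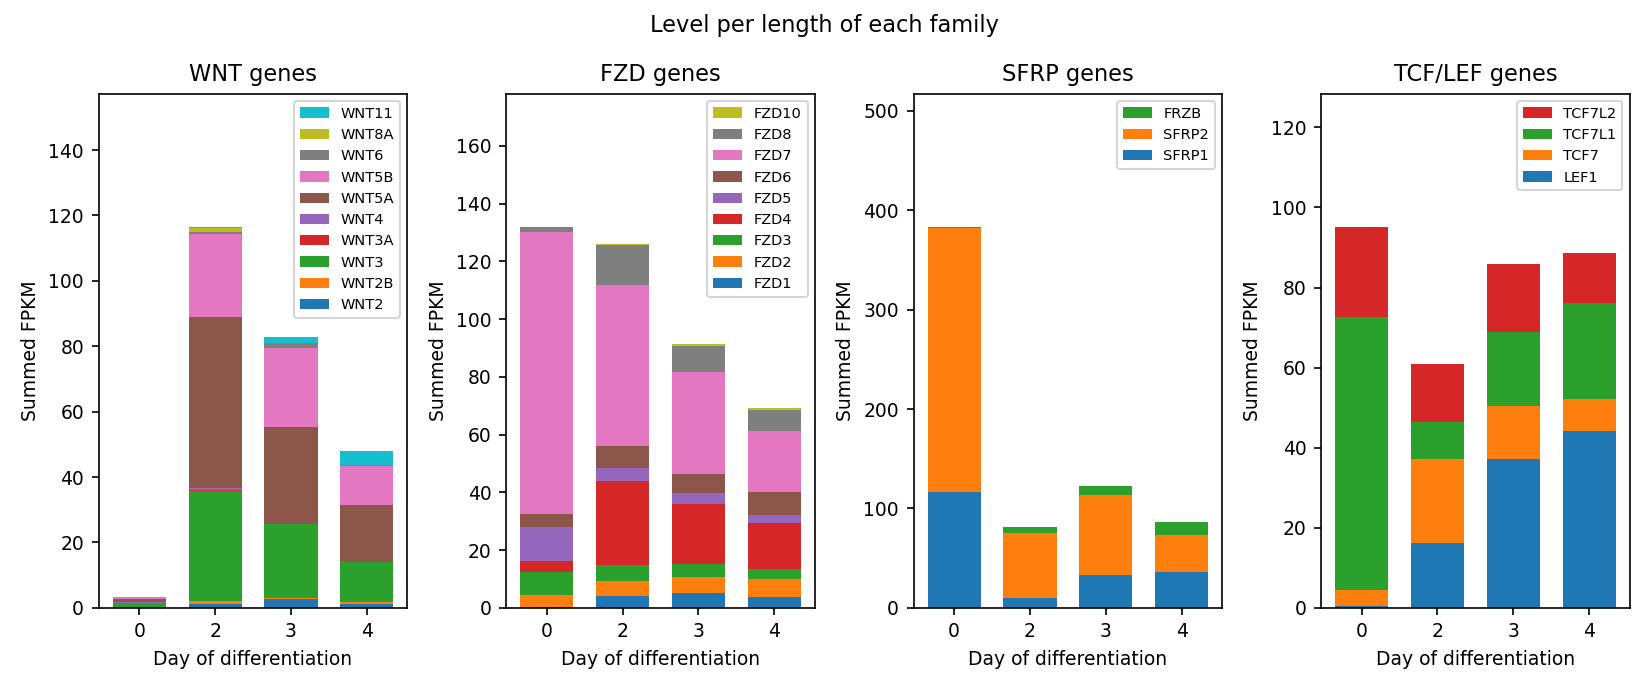
Summed FPKM (vertical axis, from 0, scales differ between panels) of the WNT, FZD, SFRP and TCF/LEF genes on days 0, 2, 3 and 4, each bar split by gene, 1 library a day. FZD7 makes up 30.8% of its bar on day 4, against 74.0% on day 0, and TCF7L1 27.2%, against 71.7%, while LEF1 makes up 49.7% on day 4, against 0.473% on day 0.

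Among the coreceptors, ROR2 and ROR1 went opposite ways. ROR2 (gene ID 4920), a receptor tyrosine kinase for WNT5A, had 3.88, 69.6, 38.5 and 18.4 CPM and was 17.95-fold higher on day 2 than on day 0 (11.45 to 29.75). ROR1, its relative, had 134.2, 57.5, 74.4 and 47.1 CPM, 2.33-fold lower on day 2 than on day 0 (2.03 to 2.69), short of the 4-fold rule. Per length, ROR2 stood at 16.6 FPKM and ROR1 at 9.53 FPKM on day 2, whereas on day 0 they stood at 0.960 and 24.6 FPKM. The beta-catenin coreceptors moved little between days 0 and 2. LRP6 had 173.8, 176.4, 162.9 and 91.1 CPM, its day 2 level within counting error of day 0 (1.01-fold, 0.924 to 1.11) and its day 4 level 1.94-fold below day 2 (1.73 to 2.17). LRP5 lay between 34.9 and 41.7 CPM on all days.

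The R-spondins and their receptors did not share a day. LGR5 (gene ID 8549), an R-spondin receptor and itself a target of the pathway, had 3, 813, 564 and 223 counts, or 0.582, 159.5, 109.0 and 40.5 CPM. LGR4, the more widely expressed receptor, had 142.7, 246, 193.5 and 143.9 CPM, so day 4 and day 0 were within counting error (1.01-fold, 0.911 to 1.12). RSPO2 (gene ID 340419), with 3, 9, 312 and 661 counts, was almost undetected until day 2 and had 60.3 CPM on day 3 and 120.1 CPM on day 4. RSPO3 (gene ID 84870), a ligand needed for vessel development in mice, was not listed on day 0 and had 7.45, 28.2 and 76.9 CPM on days 2, 3 and 4, at 10.3-fold on day 4 over day 2 (7.39 to 14.8). RSPO2 and RSPO3 were highest on day 4 and LGR5 on day 2, while RSPO4, which is not among the 49, had 9.70, 4.32, 4.25 and 8.91 CPM. On day 4 LGR5 was at 8.81 FPKM, with RSPO2 at 38.1 and RSPO3 at 35.6 FPKM, whereas on day 2 LGR5 was at 33.65 FPKM, with RSPO2 at 0.550 and RSPO3 at 3.39 FPKM. RSPO1 had a single count, on day 0.

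Of the 8 secreted antagonists, 4 were 4-fold higher on day 2 than on day 0 (DKK1, DKK4, FRZB and NOTUM), beside 4.63% of all genes, and 2 were lower (SFRP1 and WIF1), beside 1.93%. SFRP1 (gene ID 6422), a soluble frizzled-related protein that binds WNT, had 513.1, 44.5, 150.2 and 162.5 CPM. It was 11.5-fold lower on day 2 than on day 0 (10.1 to 13.3) and 3.65-fold higher on day 4 than on day 2 (3.15 to 4.24), with day 2 the lowest. SFRP2 (gene ID 6423), of the same family, had 519.5, 134.4, 161.6 and 74.15 CPM, with its lowest level on day 4, 7.01-fold below day 0 (6.31 to 7.79). FRZB (gene ID 2487), the third frizzled-related gene, had 2.13, 15.3, 25.9 and 36.2 CPM, higher on each later day and 16.95-fold higher on day 4 than on day 0 (9.27 to 34.5). The 3 genes together gave 383.4, 81.1, 123.0 and 86.3 FPKM on the 4 days. WIF1 (gene ID 11197), a WNT-binding inhibitor, had 38, 1, 0 and 0 counts.

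The DKK genes and NOTUM were at their lowest on day 0. DKK1 (gene ID 22943), which blocks LRP coreceptors, was not listed on day 0 and had 38.8, 26.5 and 26.35 CPM on days 2, 3 and 4, its day 4 and day 3 levels within counting error (1.005-fold lower, 0.790 to 1.28). DKK4 had 0, 18, 2 and 1 counts. DKK3, a relative whose link to WNT is less clear, had 22.9, 75.9, 90.8 and 73.2 CPM, 3.32-fold higher on day 2 than on day 0 (2.69 to 4.11) and short of the 4-fold rule. Per length DKK1 stood at 21.1 FPKM, DKK3 at 28.6 FPKM and DKK4 at 4.28 FPKM on day 2. NOTUM (gene ID 147111), an enzyme that removes the lipid from WNT proteins, was not listed on day 0 and had 15.7, 17.8 and 9.996 CPM on days 2, 3 and 4. With day 0 taken as 3 counts, it was 27.0-fold higher on day 2 than on day 0.

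The 4 nuclear factors exchanged places. TCF7L1 (gene ID 83439), which acts mainly as a repressor in embryonic stem cells, had 195.9, 27.5, 54.9 and 70.7 CPM. It was 7.13-fold lower on day 2 than on day 0 (5.97 to 8.57), its lowest level, and 2.57-fold higher on day 4 than on day 2 (2.12 to 3.15). LEF1 (gene ID 51176), mostly an activator with beta-catenin, had 1.16, 55.1, 124.7 and 141.2 CPM, higher on each later day. TCF7 (gene ID 6932) had 11.05, 64.5, 41.0 and 24.0 CPM, 5.84-fold higher on day 2 than on day 0 (4.40 to 7.88) and 2.69-fold lower on day 4 than on day 2 (2.19 to 3.32). TCF7L2 was called in no comparison, with 88.0, 59.2, 67.1 and 48.9 CPM. The 4 genes summed to 95.2, 60.9, 85.8 and 88.6 FPKM on days 0, 2, 3 and 4. The leading gene of this sum was TCF7L1 on day 0 with 71.7%, TCF7 on day 2 with 34.5%, and LEF1 on days 3 and 4 with 43.4 and 49.7%.

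Of the 7 targets and feedback inhibitors, 4 were 4-fold higher on day 2 than on day 0 (NKD1, SP5, SP8 and TNFRSF19), beside 4.63% of all genes, and 0 were lower, beside 1.93%. The median log2 difference was 2.73, beside -0.00 over all genes. NKD1 (gene ID 85407), an inhibitor that acts on dishevelled, had 7.56, 130.6, 110.9 and 45.4 CPM, 17.3-fold higher on day 2 than on day 0 (12.5 to 24.5) and 2.87-fold lower on day 4 than on day 2 (2.48 to 3.34). SP5 (gene ID 389058), a transcription factor and direct target of beta-catenin, had 0.388, 28.4, 34.2 and 15.45 CPM. Its day 3 level was within counting error of day 2 (1.20-fold, 0.960 to 1.51) and its day 4 level 2.21-fold below day 3 (1.70 to 2.90). SP8 (gene ID 221833), a related factor, had 0.970, 16.1, 34.0 and 19.1 CPM, highest on day 3. TNFRSF19 (gene ID 55504), a receptor of the TNF family listed among WNT targets, had 0.776, 10.8, 47.9 and 62.3 CPM, and unlike the other targets it was highest on day 4.

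AXIN2, the most widely used readout of beta-catenin signalling, followed another course than those targets. It had 33.2, 35.7, 58.95 and 38.5 CPM on days 0, 2, 3 and 4. Day 2 and day 0 were within counting error (1.08-fold, 0.869 to 1.33), the day 3 level was 1.65-fold above day 2 (1.37 to 2.00), and day 4 was within counting error of both day 2 and day 0. Of the 2 ubiquitin ligases that R-spondins act on, RNF43 had 1.94, 10.6, 22.6 and 9.63 CPM and was 5.46-fold higher on day 2 than on day 0 (2.75 to 12.0), just short of the 4-fold rule on the log2(CPM + 1) scale with a difference of 1.98. ZNRF3, its relative, had 36.3, 38.45, 35.75 and 21.45 CPM, within counting error between days 2 and 0 (1.06-fold, 0.863 to 1.302) and 1.79-fold lower on day 4 than on day 2 (1.42 to 2.27). AXIN2, SP5, SP8 and RNF43 shared day 3 as their highest day.

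**Figure D4:**
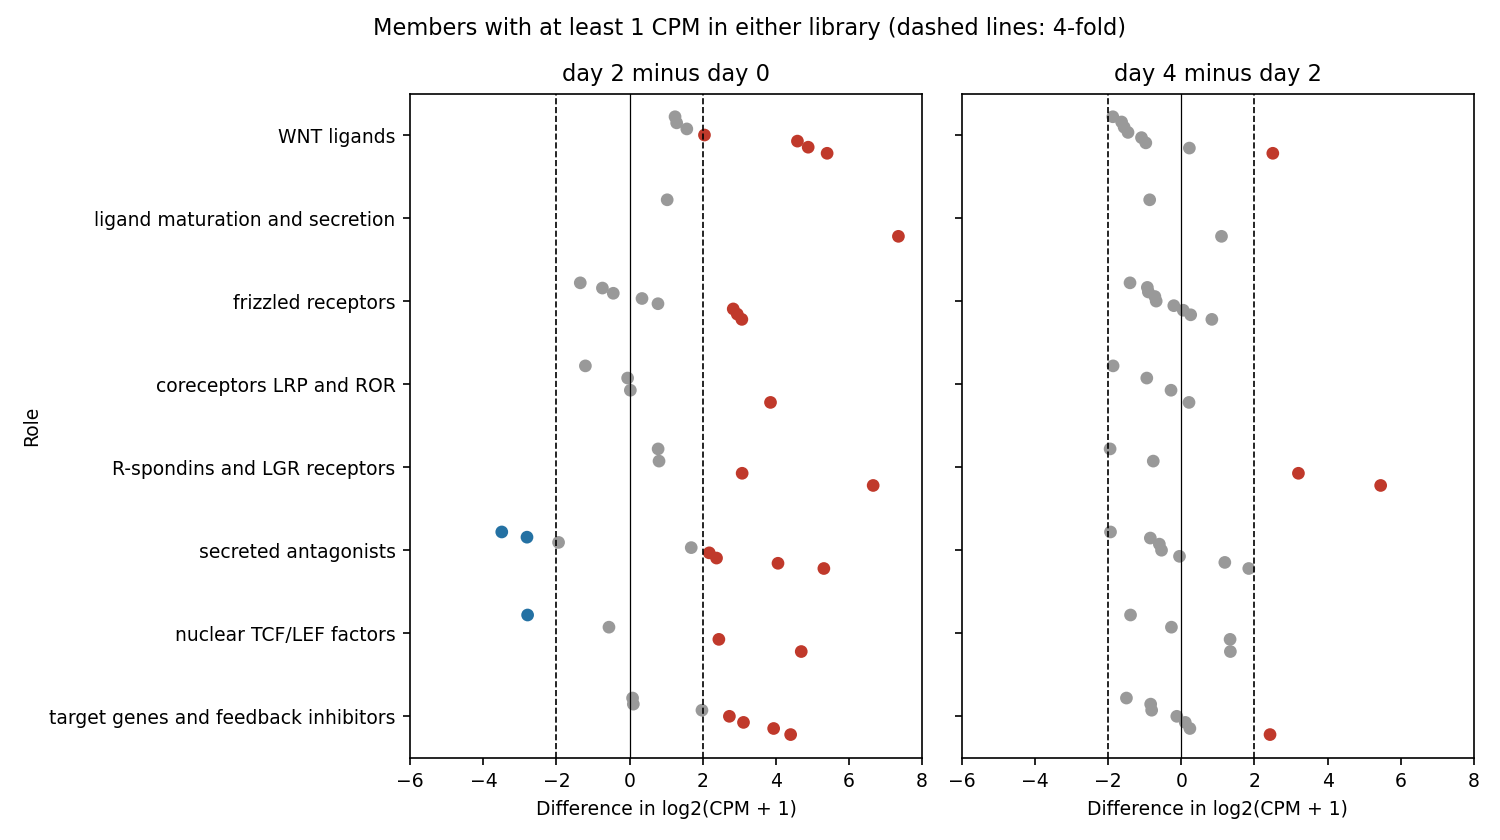
Difference in log2(CPM + 1), day 2 minus day 0 (left) and day 4 minus day 2 (right), of the genes that reached 1 CPM in at least 1 of the libraries compared (points), by role, with dashed lines at 4-fold. Red points are called higher, blue points lower and grey points neither: most red points are in the left panel, and the right panel holds 4 red points and no blue one.

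The core letters to which TCF and LEF factors bind were looked for in the 250 bases before the start of each gene in RefSeq (GRCh38.p14), as CTTTGAA or CTTTGAT or CTTTGTA or CTTTGTT on either strand. Windows of 33 of the 49 genes were searched. The other genes were not searched, among them RSPO2, SFRP1, LGR5, NOTUM and the targets AXIN2, NKD1 and ZNRF3. The shares below therefore describe the searched genes only. At least 1 match was present for 5 of these 33 (15.2%), or in 5 of 43 windows (11.6%), against 12.0% of all 35116 windows in the table, so the share of windows lay near that of all promoters. At least 2 matches in a window were present for 3 of the 33 genes (9.09%), SP5, SP8 and DKK1, against 1.21% of all windows. These shares differ in unit, since a gene can have several windows. At least 3 were present for SP5, against 0.122%. The windows of these genes and of TCF7, which has 1 match before one of its starts, are printed below. All 4 genes had a match and were 4-fold higher on day 2 than on day 0. They were picked for both traits, so they cannot show whether matches and level go together. No match was found for WNT2, WNT3, WNT5A, WNT5B, FZD1, FZD4, FZD8, ROR2, RSPO3, FRZB, WLS, LEF1 and TNFRSF19. These genes were also searched and were 4-fold higher on day 2 than on day 0. The fifth gene with a match was TCF7L2. Sequences run 5′ to 3′ along the gene's strand, end at the base before the start, and have the matches in capitals (on the opposite strand a match reads TTCAAAG or AACAAAG in these windows). They lie at chr2:170715087-170715336 on the plus strand for SP5, chr7:20786887-20787136 on the minus strand for SP8, chr10:52314031-52314280 on the plus strand for DKK1 and chr5:134123368-134123617 on the plus strand for TCF7.
SP5: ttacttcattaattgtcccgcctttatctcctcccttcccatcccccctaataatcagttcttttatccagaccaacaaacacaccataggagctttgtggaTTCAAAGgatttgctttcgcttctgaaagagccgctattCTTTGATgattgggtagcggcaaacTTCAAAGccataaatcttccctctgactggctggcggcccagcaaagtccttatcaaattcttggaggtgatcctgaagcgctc
SP8: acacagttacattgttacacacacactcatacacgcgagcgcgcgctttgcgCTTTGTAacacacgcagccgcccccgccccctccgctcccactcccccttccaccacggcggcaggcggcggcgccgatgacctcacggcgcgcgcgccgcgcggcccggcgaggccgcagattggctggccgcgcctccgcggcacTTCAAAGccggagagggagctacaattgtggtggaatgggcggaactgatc
DKK1: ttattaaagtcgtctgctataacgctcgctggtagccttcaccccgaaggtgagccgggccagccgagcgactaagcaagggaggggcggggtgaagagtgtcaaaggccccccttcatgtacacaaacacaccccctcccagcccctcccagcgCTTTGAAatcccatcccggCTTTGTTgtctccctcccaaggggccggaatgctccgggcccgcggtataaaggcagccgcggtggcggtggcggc
TCF7: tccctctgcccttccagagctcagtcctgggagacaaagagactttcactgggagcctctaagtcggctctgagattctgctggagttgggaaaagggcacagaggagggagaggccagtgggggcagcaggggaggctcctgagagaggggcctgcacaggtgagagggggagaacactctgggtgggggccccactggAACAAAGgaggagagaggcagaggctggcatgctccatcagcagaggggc
Matches begin 148, 109 and 84 bases before the start in SP5, 198 and 51 bases before it in SP8, 95 and 76 bases before it in DKK1, and 50 bases before it in TCF7, and none of them overlap. A match of letters is a description of the window and shows neither binding nor use.

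Other genes of the pathway are given beside the 49, and their counts stand against the same shares of all genes: 4.63% higher and 1.93% lower for day 2 against day 0, 2.32% and 1.40% for day 4 against day 2, and 6.27% and 3.44% for day 4 against day 0. Of 15 genes of the signal relay and the beta-catenin destruction complex, 0 were called in any of the 3 comparisons, with median log2 differences of 0.09 (day 2 against day 0), -0.11 (day 4 against day 2) and 0.02 (day 4 against day 0). CTNNB1, which encodes beta-catenin, was 1.04-fold higher on day 2 than on day 0 (0.977 to 1.10). Of 10 nuclear partners, PYGO1, a beta-catenin cofactor, was 4-fold higher on day 2 than on day 0, with 0.194, 11.6, 14.7 and 8.54 CPM on the 4 days, and 0 were lower. TLE1 and TLE3, corepressors that TCF factors recruit, went opposite ways without reaching 4-fold: TLE1 was 2.10-fold lower on day 2 than on day 0 (1.82 to 2.43), and TLE3 was 2.66-fold higher (2.35 to 3.03). Of 9 planar polarity genes, VANGL1, a membrane protein of that system, had 36.5, 152.2, 102.8 and 65.6 CPM, 4.17-fold higher on day 2 than on day 0 (3.56 to 4.92). DAAM2, a formin that dishevelled engages, had 6.79, 2.94, 15.3 and 26.35 CPM, 8.96-fold higher on day 4 than on day 2 (5.25 to 16.4). None of the 9 was lower. Of 7 other receptors and coreceptors 0 were called. PTK7, a coreceptor of planar polarity, was 1.78-fold higher on day 2 than on day 0 (1.61 to 1.98), and RYK, a WNT receptor related to kinases, 1.51-fold higher (1.36 to 1.68). Of 9 other ligands, 6 were listed and 0 called.

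Secreted antagonists outside the 49 were more variable. CER1, which in humans is mainly known to block NODAL and BMP, had 4.85, 2287, 26.3 and 1.64 CPM on the 4 days. DKK2, a relative of DKK1, and SOST, which also binds LRP coreceptors, had 21.8 and 45.98 CPM on day 4, against 0 on day 2. APCDD1, a membrane-bound inhibitor, had 1.55, 23.7, 24.2 and 17.6 CPM. Of these 6 genes, 2 were 4-fold higher on day 2 than on day 0, and 3 were higher and 1 lower on day 4 than on day 2. Of 15 further genes known as WNT targets, 7 were 4-fold higher and 0 lower on day 2 than on day 0 (all genes 4.63% and 1.93%), and 2 were higher and 2 lower on day 4 than on day 2 (all genes 2.32% and 1.40%). The lower ones were the streak factors TBXT, with 0.194, 36.5, 24.2 and 6.73 CPM, and MIXL1, with 0.194, 57.5, 5.80 and 0.909 CPM. The higher ones were CDX2, a factor of the posterior embryo, with 0, 4.90, 23.2 and 30.7 CPM, and CD44, with 188.1 CPM on day 4, against 26.9 on day 2. SNAI2, a factor of cell migration, had 3.69, 39.8, 106.1 and 131.9 CPM and was not called in that step. CDX2, CD44 and SNAI2 were highest on day 4, as were MYC, CCND1, BAMBI and EPHB2. TBXT and MIXL1 also belong to the streak markers, whose sum had the same highest day.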

How the data were processed

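RNA-seq of 4 libraries, 1 per day, was re-analysed from the authors' gene tables. Per the file headers, each deposited table gives an expected count (an estimate), FPKM and a transcript length in bases for every Entrez gene. RSEM, Bowtie, BWA and the build hg19 are named, per the submitters' processing notes, with versions not given in the sources used here, and the series' design text names BWA with an analysis of variance and TopHat with Cufflinks. Deposited expected counts were rounded and scaled to CPM on totals adjusted by TMM (factors 1.02, 0.981, 0.995 and 1.00; edgeR 4.0.16, R 4.3.3). A gene absent from a table was taken as 0. Deposited FPKM and lengths, both by the authors, served to compare genes and as an alternative. Names came from RefSeq (GRCh38.p14), for 19273 of 19390 IDs, and promoters from the same source, with its own coordinates. No column was left unmapped (0).

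Fold intervals are exact conditional binomial and CPM intervals exact Poisson intervals (95%), and without molecular identifiers they cover counting error only. Values on every day are printed for genes with at least 10 CPM on any day and a 4-fold difference in any of the 3 comparisons, for families, and for up to 4 genes of each list of other pathway genes, by largest difference; the other genes named, such as AXIN2 and LRP6, were added to account for all 49. Members and lists were chosen with earlier results of these data known. Alternatives were pseudocounts of 0.1 and 5 CPM, DESeq2 1.42.0 size factors, unadjusted totals, a minimum of 0 or 5 CPM, FPKM and fixed lengths. The calling rule was tested on simulated data drawn with counting error only, which hold no variation between cultures or libraries. Python 3.11.15 was used with scipy 1.17.1, pandas 2.3.3, numpy 2.4.6 and matplotlib 3.10.9.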

Additional observations from a re-analysis of the deposited data

How the results depend on the processing

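Of 63 recomputed counts and medians, 54 stayed within 1.5 times (counts) or 0.5 (median log2 differences) of the values given, and none changed sign. For day 2 against day 0 the median of 1.83 became 2.46 with a pseudocount of 0.1 CPM, 0.774 with 5 CPM, 1.29 with no minimum and 1.28 on FPKM. For day 4 against day 2, 4-fold lower genes numbered 3 with a pseudocount of 0.1 CPM and 1 on FPKM, against 0. For day 4 against day 0, a pseudocount of 5 CPM gave 13 higher genes instead of 20, 2 lower instead of 4, and a median of 1.39 instead of 1.95. Of 546 recomputed differences of single named genes, 18 fell short of 4-fold, 11 of them with a pseudocount of 5 CPM and 7 on FPKM, 3 newly passed it, and none reversed. FZD1, FZD4 and FZD5 fell short under both settings for day 4 against day 0, as did FZD1, FRZB and TNFRSF19 for day 2 against day 0. DESeq2 size factors, unadjusted totals and a minimum of 5 CPM moved no count or median beyond those limits. Frizzled shares with 1 fixed length per gene stayed within 1 percentage point in all 36 cases. No paired analysis was possible because each day is 1 library with no replicate number, and leaving out a replicate was not possible for the same reason. Depth limits the low genes: 1 count is about 0.2 CPM, and 15 of the 49 genes had 3 counts or fewer on day 0.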

Other observations

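Counting error separates smaller differences than the 4-fold rule does, although it leaves out all variation between cultures and libraries. For day 2 against day 0, the interval of the fold excluded 1 on the higher side, or the bound did, for 30 of the 46 genes that gave a fold, and on the lower side for 9. For day 4 against day 2 the numbers were 9 higher and 26 lower of 46. The same counts were not made over all genes of the series. These numbers therefore have no share to stand beside and cannot be read as particular to WNT genes.

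The listed transcript length of a gene is an average over its isoforms, weighted by the authors' estimate of each. Of the 49 genes, 18 have several transcripts in the tables, and for 17 of these the listed length differed between days. It differed by over 10% for 3 genes. TNFRSF19 was listed at 2155, 4198, 4281 and 4309 bases on days 0, 2, 3 and 4, where day 0 rests on 4 counts. LEF1 was listed at 2660, 3349, 3323 and 3199 bases, where day 0 rests on 6 counts. WNT2B was listed at 2063, 2515, 2063 and 2063 bases, on 3 to 14 counts. For LEF1, days 2, 3 and 4, with 281, 645 and 777 counts, spanned 3199 to 3349 bases.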
